A study of Mus musculus with 4 samples.

Results

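The enzymes that hydroxylate proline and lysine in new collagen chains, with the subunits and partners they act with, were followed in NIH3T3 cells given an siRNA against Timp1. They were 10 genes: P4ha1, P4ha2, P4ha3, P4hb, Plod1, Plod2, Plod3, P3h1, Crtap and Ppib. Members were all non-control probes whose gene name in the array files was one of these (P3h1 also as Lepre1), which gave 18 of 56605 probes, and 10 of 37074 gene names. Of these 18 probes, 13 were tested, at least 1 per gene, and each tested probe was well above background on all 4 arrays. Of the other 5, 4 were well above background on no array, and 1 had a spot with a non-uniformity flag.

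NIH3T3 is an established mouse fibroblast line of embryonic origin, although the labels call the source dermal fibroblasts. The siTIMP1 group (n = 2 arrays) received siRNA to Timp1, the gene of a secreted inhibitor of matrix metalloproteinases, and the siControl group (n = 2 arrays) received a control siRNA. In both groups the siRNA was delivered on apatite nanoparticles (sCA), in medium with 2% serum. Cy3-labelled total RNA was read on 1-colour Agilent arrays of 60-base probes, and the comparison asked which transcripts differ when Timp1 is targeted. The labels name no separate cultures for the replicates, so p-values measure the spread between these arrays, which may be technical.

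Collagen chains are modified in the endoplasmic reticulum before they fold into a triple helix. Prolyl 4-hydroxylase is a tetramer of catalytic alpha subunits, from P4ha1, P4ha2 or P4ha3, and of P4hb, which is also protein disulfide isomerase, and its 4-hydroxyproline keeps the helix stable at body temperature. Lysyl hydroxylases, from Plod1, Plod2 and Plod3, make the hydroxylysine that carries sugars and forms cross-links. Prolyl 3-hydroxylase 1 (P3h1) works in a complex with Crtap and with cyclophilin B (Ppib), a prolyl isomerase. These hydroxylases are dioxygenases that need iron, ascorbate, oxygen and 2-oxoglutarate, and fibroblasts, as collagen-secreting cells, depend on them.

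The probes behind the contrast between P4ha2 and P4ha1, the catalytic subunits on which the results turn, are shown by the first 30 of their 60 bases, as the array files give them. The P4ha2 probe lies on the plus strand of mouse build mm9 at chr11:53945032-53945091, and the P4ha1 probe on the plus strand at chr10:58834272-58834331. No annotation of that build was used, so exon or UTR was not assigned. The longest run of bases that these P4ha1 and P4ha2 probes share is 6, and over all 18 probes it is 10.
P4ha2 probe: cagatatttcaggtagaagatgtctcagtg
P4ha1 probe: tggtaactaactagggcccagtcaggtctg

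P4ha2 and P4ha1 are also known as targets of the hypoxia-inducible factors (HIF), and the bases before their starts are therefore printed with the HIF core letters in capitals. The sequences are from RefSeq promoters of GRCm38.p6, 5′ to 3′ on the plus strand, cut before the outermost annotated start of each gene, at chr11:54100674-54100923 for P4ha2 (250 bases) and chr10:59323046-59323196 for P4ha1 (151 bases). The motifs searched were ACGTG and GCGTG on both strands, where they read CACGT and CACGC. The RefSeq table matched 9 of the 10 genes, and Plod2 had no entry. Over windows of 300 bases, P4ha2 held 2 ACGTG and 2 GCGTG, and P4ha1 held 1 ACGTG and 2 GCGTG. At least 1 of these motifs stood in 8 of the 9 windows, the exception being P4ha3, and in 43.8% of 32851 promoters. The endoplasmic reticulum stress element, CCAAT and CCACG with 9 bases between them, was in none of the 9 windows and in 0.1% of all promoters. These matches describe the letters only.
P4ha2 upstream: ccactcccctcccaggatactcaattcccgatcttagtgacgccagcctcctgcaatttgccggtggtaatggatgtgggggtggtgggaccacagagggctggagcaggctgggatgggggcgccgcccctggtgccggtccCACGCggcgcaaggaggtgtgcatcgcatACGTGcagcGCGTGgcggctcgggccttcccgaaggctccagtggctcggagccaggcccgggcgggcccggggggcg
P4ha1 upstream: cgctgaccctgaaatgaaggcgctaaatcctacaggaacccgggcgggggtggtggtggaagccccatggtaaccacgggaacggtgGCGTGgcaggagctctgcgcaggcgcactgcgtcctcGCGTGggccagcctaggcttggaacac

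The arrays shared 1 slide and 1 scan, with siTIMP1 at positions 3 and 4 and siControl at positions 1 and 2, so position on the slide and group cannot be told apart. The share of spots well above background was 50.4% and 45.9% in siTIMP1 and 50.7% and 52.1% in siControl. Timp1 itself had processed signals of 1840.4 and 1492 in siTIMP1 and of 53297 and 67559 in siControl, a fall to 2.68% of the siControl level (log2 fold change -5.22, limma adjusted p = 0.0105). Without siTIMP1 replicate 1 its log2 fold change was -5.37 (adjusted p = 0.137), and without siTIMP1 replicate 2 it was -5.07 (adjusted p = 0.184). Of 12 fibroblast markers 11 were well above background on all arrays, among them Col1a1, Col1a2 and Vim, while Fap was not on any. Of 5 endothelial markers none was, and of 7 epithelial markers 2 were. Of 6 skeletal or smooth muscle markers 2 were, and of 6 osteoblast or chondrocyte markers 3 were, namely Sp7, Sox9 and Col2a1. Of 8 leukocyte markers 5 were well above background on all arrays, and Adgre1, Lyz2 and Cd79a on none. Ptprc was among the 5, but by only 1 of its 7 probes. The summed signal of the leukocyte list was 3166 and 2975 in siTIMP1 and 3541 and 3502 in siControl, and its part in the results was not tested.

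Of the 13 tested probes, 1 passed the threshold, an adjusted p under 0.05 over all tested probes in limma: P4ha2 fell, and none rose. Over all 26015 tested probes 0.688% were called, 0.627% lower and 0.0615% higher. At an unadjusted p under 0.05, 2 further probes were higher, those of Crtap and P4hb, which is 15.4% of the 13, against 10.6% of all tested probes. P4ha2 was the 1 lower (7.69% of the 13, against 7.70% of all tested probes). The groups did not overlap for 9 of the 13 probes, 8 higher (61.5%) and 1 lower (7.69%), against 53.0% of all tested probes, 29.8% higher and 23.2% lower. The median log2 fold change, siTIMP1 minus siControl, was 0.13 over the 13 probes and 0.02 over all tested probes, whose 5th and 95th percentiles were -0.68 and 0.43. Except for P4ha2 and P4ha3, the members thus lay inside that range.

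**Figure D1:**
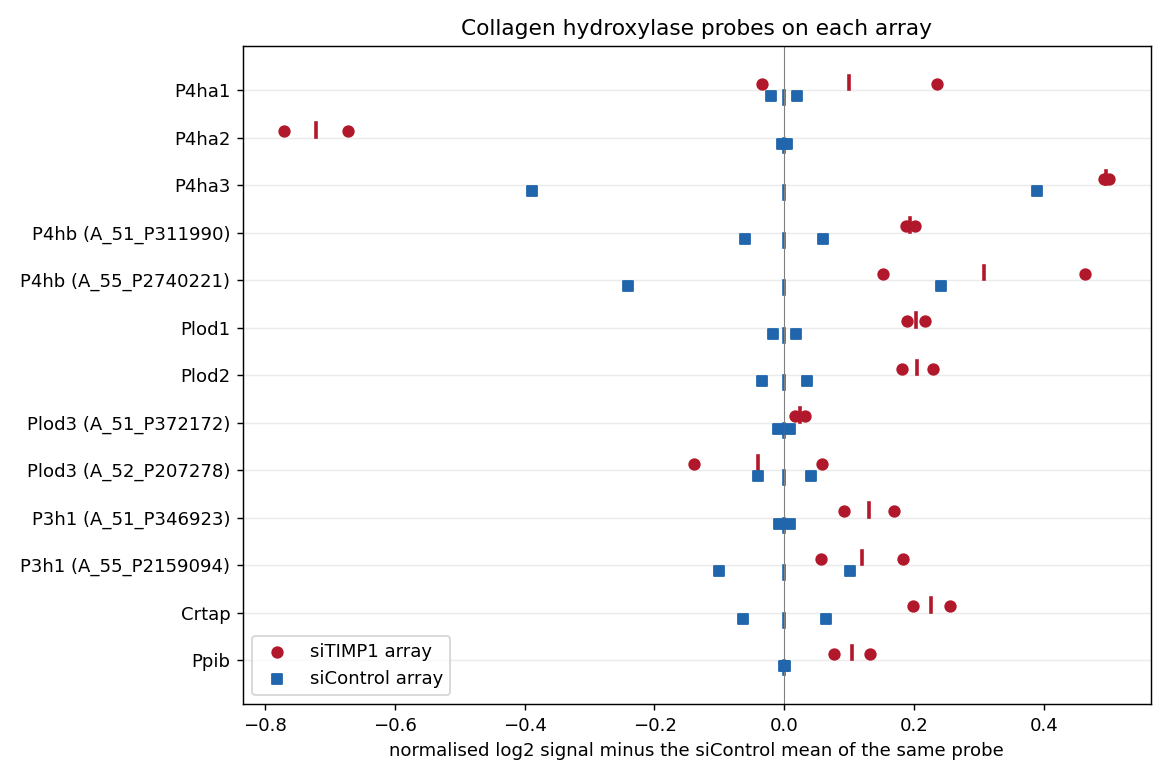
Normalised log2 signal of each tested probe on each array, minus the siControl mean of that probe; red circles are siTIMP1 arrays, blue squares siControl arrays, and short bars the group means (n = 2 each). Only P4ha2 has both siTIMP1 arrays below both siControl arrays, and the siControl arrays of P4ha3 lie far apart.

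Among the alpha subunits, P4ha2 encodes an alternative catalytic chain of prolyl 4-hydroxylase. Its processed signals were 1879.65 and 1753 in siTIMP1 and 2926 and 2874 in siControl. Both siTIMP1 arrays were below both siControl arrays, and the gap between the groups was wide beside the gaps within them. On the normalised log2 scale P4ha2 averaged 3.26 ± 0.07 in siTIMP1 and 3.98 ± 0.01 in siControl (SD, n = 2 each). The log2 fold change was -0.72 (SE 0.066, 95% interval -0.89 to -0.55, limma adjusted p = 0.0313), so that P4ha2 was at 60.7% of its siControl level. The probe matches 2 RefSeq transcripts of the gene in the array files, so these variants were not separated. Without siTIMP1 replicate 1 the log2 fold change was -0.77 (adjusted p = 0.178) and without siTIMP1 replicate 2 it was -0.67 (adjusted p = 0.250). In limma without a mean-variance trend the adjusted p was 0.153. The other P4ha2 probe, for an Ensembl transcript, was not well above background on any array.

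P4ha1, the main alpha subunit in many cell types, had signals of 385 and 319 in siTIMP1 and of 325 and 309 in siControl. The groups overlapped, with siTIMP1 replicate 1 the highest array. Its log2 fold change was 0.10 (SE 0.12, 95% interval -0.20 to 0.40, limma adjusted p = 0.668), and the interval does not reach the value of P4ha2. The value was -0.04 without siTIMP1 replicate 1 and 0.24 without siTIMP1 replicate 2. A further P4ha1 probe, whose coordinates span 3351 bases and so cross at least 1 intron, had 71.2 and 74.9 in siTIMP1 and 80.4 on siControl replicate 2. Its spot on siControl replicate 1 was marked non-uniform and read 543, so no fold change is given.

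P4ha3, the third alpha subunit, was dim. Its tested probe had signals of 62.0 and 62.3 in siTIMP1 and of 56.6 and 32.3 in siControl. The siTIMP1 arrays were close together and above both siControl arrays, which differed from each other by 0.78 on the log2 scale. The log2 fold change of P4ha3 was 0.50 (SE 0.28, 95% interval -0.22 to 1.21, limma adjusted p = 0.394). With siControl replicate 2 left out it was 0.11, and with siControl replicate 1 left out 0.88, so the value depends on which siControl array is used. The probe lies at chr7:107467431-107467490 (mm9), and a further P4ha3 probe was not well above background on any array.

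P4ha2 was then set against P4ha1 within each array, where scaling cancels. The normalised log2 signal of P4ha2 minus that of P4ha1 was 2.29 and 2.46 on the siTIMP1 arrays and 3.17 and 3.22 on the siControl arrays. The difference between groups was -0.82, larger than the gap within either group, and most of it is the P4ha2 difference already given. The two-sided exact permutation test gave p = 0.333, the smallest p that 2 arrays against 2 allow. A difference between probes is not a ratio of transcripts, since probes differ in brightness.

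P4hb, the beta subunit of prolyl 4-hydroxylase and a disulfide isomerase in its own right, had signals of 8319 and 8223 in siTIMP1 and of 7389.8 and 6647 in siControl. The probe lies at chr11:120422076-120422135 (mm9, minus strand). Both siTIMP1 arrays were higher. Its log2 fold change was 0.19 (SE 0.061, 95% interval 0.04 to 0.35), with a limma adjusted p of 0.211. A dim P4hb probe designed on a cDNA clone, which the files leave unmapped, had 70.5 and 87.3 in siTIMP1 and 52.6 and 71.8 in siControl. There the groups overlapped, and the log2 fold change was 0.31 (SE 0.22, limma adjusted p = 0.479). With 1 array left out it lay between 0.07 (siControl replicate 1 left out) and 0.55 (siControl replicate 2 left out).

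Among the lysyl hydroxylases none passed the threshold. Plod1, which hydroxylates lysines of the helix, had signals of 432 and 423 in siTIMP1 and of 359.7 and 360.5 in siControl. Plod2, which acts on the telopeptides that form cross-links, had 172 and 166 in siTIMP1 and 148 and 138 in siControl. Both genes had the siTIMP1 arrays above the siControl arrays, with small gaps within each group. The log2 fold change of Plod1 was 0.20 (95% interval -0.003 to 0.41, limma adjusted p = 0.277), and that of Plod2 was also 0.20 (95% interval -0.05 to 0.46, limma adjusted p = 0.340). The Plod1 probe lies at chr4:147284321-147284380 (mm9, minus strand) and the Plod2 probe at chr9:92502483-92502542 (mm9). The Plod2 probe matches 2 RefSeq transcripts of the gene, so these variants were not separated. Each gene had a further probe for an Ensembl transcript that was not well above background on any array.

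Plod3, which is also a glycosyltransferase of hydroxylysine, had 2 tested probes. The brighter one had signals of 3400.045 and 3431 in siTIMP1 and of 3313 and 3198 in siControl. The other, whose coordinates span 169 bases and so cross an intron, had 289 and 331 in siTIMP1 and 321 and 297 in siControl. These values lay close together in all 4 arrays, and the log2 fold changes were 0.02 (95% interval -0.12 to 0.17) and -0.04 (95% interval -0.31 to 0.23), with limma adjusted p-values of 0.833 and 0.857. The sign of either value turned under other settings: the first was -0.03 with quantile normalization and -0.02 with the percentile over detected probes, and the second was 0.06 without siTIMP1 replicate 1.

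**Figure D2:**
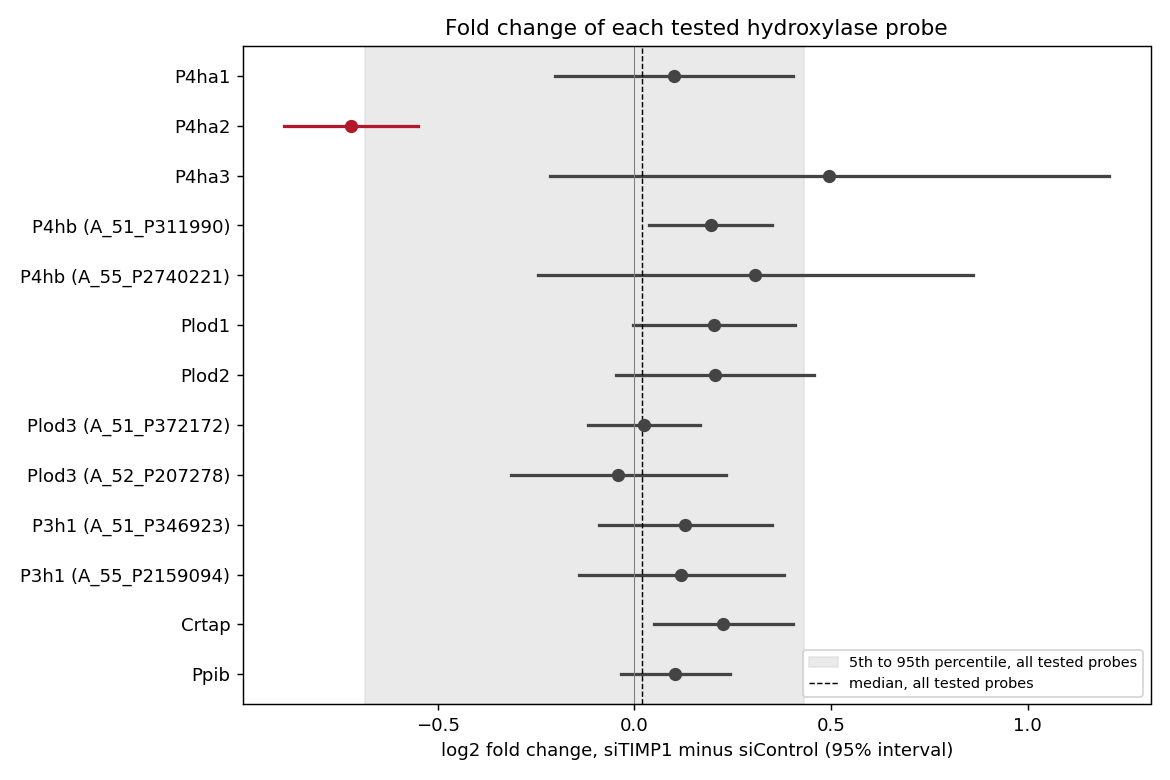
Log2 fold change of each tested probe (siTIMP1 minus siControl) with its 95% interval from limma; red marks an adjusted p under 0.05, the grey band the 5th to 95th percentile of all tested probes and the dashed line their median. P4ha2 at -0.72 is the only probe past the threshold, and 10 of the other 12 intervals include 0.

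In the prolyl 3-hydroxylase complex, P3h1 is the catalytic member. One P3h1 probe had signals of 339 and 357 in siTIMP1 and of 309.7 and 306.5 in siControl, and another had 914 and 996 in siTIMP1 and 924 and 785 in siControl. The groups were apart on the first probe and overlapped on the second. Their log2 fold changes were 0.13 and 0.12 (SE 0.086 and 0.10), with limma adjusted p-values of 0.456 and 0.551. On the second probe, leaving out siControl replicate 1 gave 0.22 and leaving out siControl replicate 2 gave 0.02. Crtap, the helper protein of P3h1, had signals of 4732 and 4915 in siTIMP1 and of 4226 and 3779 in siControl. Both siTIMP1 arrays were higher, and the log2 fold change was 0.23 (95% interval 0.05 to 0.40, limma adjusted p = 0.200). Ppib had signals of 5195 and 5388 in siTIMP1 and of 4824 and 4720.4 in siControl, with a log2 fold change of 0.10 (95% interval -0.03 to 0.24, limma adjusted p = 0.367). The 3 genes had values of the same sign and none passed the threshold. The lowest bound of their intervals was -0.14, on the second P3h1 probe.

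Within groups, the median absolute difference between the arrays was 0.057 in siTIMP1 and 0.069 in siControl over the 13 member probes, and 0.118 in siTIMP1 and 0.145 in siControl over all tested probes. The 5 genes with a symbol whose mean-centred profile over the 4 arrays lay nearest to that of P4ha2, by Euclidean distance among 12515 genes, were Rsf1, Ssr1, Armcx1, Cand2 and Dlg5, at distances of 0.046 to 0.066. Their log2 fold changes were -0.69, -0.72, -0.70, -0.75 and -0.66. Values near that of P4ha2 follow from how these genes were chosen, and with 4 arrays many genes can share such a profile.

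Related genes in 7 lists were set beside the hydroxylases, with each gene read from its brightest tested probe. Of 119 tested genes in all, 1 rose and 1 fell, against 0.784% called of 17734 genes tested, 0.0846% higher and 0.699% lower. Their median log2 fold change was 0.10, against 0.02 over all genes tested in this way and 0.16 over the 10 hydroxylase genes. The groups did not overlap for 54 of the 119 genes higher and for 19 of the 119 lower. Over all 17734 genes they did not overlap for 31.0% higher and 23.0% lower, which is 54.0% in either direction.

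Collagen folding partners of the secretory pathway had 16 tested genes, none past the threshold in limma, with an unadjusted p under 0.05 for 5 higher and 2 lower, shares whose background over genes was 11.8% and 7.98%. Ero1l (Ero1a), the oxidase that recharges disulfide isomerases such as P4hb, had signals of 1334 and 1342 in siTIMP1 and of 2877 and 2023 in siControl, a log2 fold change of -0.90 (limma adjusted p = 0.105). Sec23a, a coat component that procollagen export needs, had -0.47 (limma adjusted p = 0.129), and its other tested probe had -0.90. Fkbp10, a prolyl isomerase that aids telopeptide lysyl hydroxylation, had 0.27 (limma adjusted p = 0.143). These 3 genes were named for their small p, so groups that lie apart follow largely from that choice. Over the 16 genes the groups did not overlap for 6 higher and 2 lower, where the background over genes was 31.0% and 23.0%.

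A list of other members of the disulfide isomerase family, to which P4hb belongs, had 16 tested genes and a median log2 fold change of 0.05, which was -0.04 without siControl replicate 1 and -0.03 with quantile normalization. The list also held P4htm, a transmembrane prolyl 4-hydroxylase that is counted among the dioxygenases too. None passed the threshold in limma, with an unadjusted p under 0.05 for 2 of the 16 genes higher and 2 lower. The background over genes was 11.8% higher and 7.98% lower. Txndc5 had a log2 fold change of 0.29, Tmx3 of -0.38 and Tmx1 of -0.60 (limma adjusted p = 0.130, 0.234 and 0.246).

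Other cyclophilins, the family of Ppib, had 15 tested genes, 1 call and a median of 0.06, which was -0.02 without siControl replicate 1. Ppih, a cyclophilin of the spliceosome, fell by 0.98 on the log2 scale (SE 0.085, limma adjusted p = 0.0281), with signals of 409 and 439.6 in siTIMP1 and of 842 and 779 in siControl. Further Ppih probes ranged between -0.99 and 0.30, so the probes of this gene disagreed. The call held in 10 of 13 alternatives, and the adjusted p was 0.197 without siTIMP1 replicate 1 and 0.208 without siTIMP1 replicate 2. Ppid, Ppic and Ppie had log2 fold changes of 0.24, 0.15 and 0.22 (limma adjusted p = 0.170, 0.258 and 0.302).

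Dioxygenases that hydroxylate other proteins, related in mechanism to the collagen enzymes, had 15 tested genes and a median of -0.01. With any 1 array left out the median was 0.03 to 0.09, and with the stricter filter 0.05, so its sign did not hold. None passed in limma, and an unadjusted p under 0.05 was reached by 5 of the 15 genes higher and 0 lower. Over all genes tested in this way the shares were 11.8% higher and 7.98% lower. Jmjd6, a lysyl hydroxylase of splicing factors, had a log2 fold change of 0.31, Riox1, a ribosomal oxygenase, of 0.35 and Ogfod1, a prolyl hydroxylase of a ribosomal protein, of 0.18 (limma adjusted p = 0.101, 0.157 and 0.174).

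A list of genes for the supply of cofactors and cosubstrates, which also held the HIF regulators Hif1a, Arnt and Vhl, had 22 tested genes and a median of 0.15. It was 0.10 without siTIMP1 replicate 1 and 0.23 without siControl replicate 2. Got1, the cytosolic aspartate aminotransferase, which interconverts 2-oxoglutarate and glutamate, rose by 0.55 on the log2 scale (SE 0.061, limma adjusted p = 0.0432). Its signals were 8716 and 8591 in siTIMP1 and 6041 and 5445 in siControl, its other probes had 0.57 and 0.64, and the call held in 6 of 13 alternatives. Its limma adjusted p was 0.293 without siTIMP1 replicate 1 and 0.319 without siTIMP1 replicate 2. Idh3b, a subunit of mitochondrial isocitrate dehydrogenase, had 0.42 and Glud1, glutamate dehydrogenase, had 0.27 (limma adjusted p = 0.110 and 0.117).

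Transcripts that respond to HIF had 22 tested genes and a median of 0.10. None passed in limma, and an unadjusted p under 0.05 was reached by 6 of the 22 genes higher and 1 lower, beside a background over genes of 11.8% and 7.98%. Ndrg1, a stress-responsive gene, had a log2 fold change of 0.72 and Vegfa, the endothelial growth factor, of 0.31 (limma adjusted p = 0.125 and 0.166), and Ero1l, given above, is in this list too. Values in this list ran from -0.90 to 0.74. Its median of 0.101 lay close to the 0.097 of the 7 lists together, which include this list. A link between HIF and the value of P4ha2 was not tested.

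Collagen chains, the substrates of the hydroxylases, had 17 tested genes and a median of 0.11. Leaving out siControl replicate 2 gave -0.03 and leaving out siControl replicate 1 gave 0.21, so 1 array turned its sign. None passed in limma, and an unadjusted p under 0.05 was reached by 5 of the 17 genes higher and 2 lower. Those shares were 11.8% and 7.98% over all genes tested in this way. Col8a1, Col7a1 and Col4a1, the chains of smallest p, had log2 fold changes of 0.48, 0.54 and 0.30 (limma adjusted p = 0.0652, 0.0652 and 0.118). Over the 17 chains the groups did not overlap for 7 higher and 2 lower, where the background over genes was 31.0% and 23.0%.

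**Figure D3:**
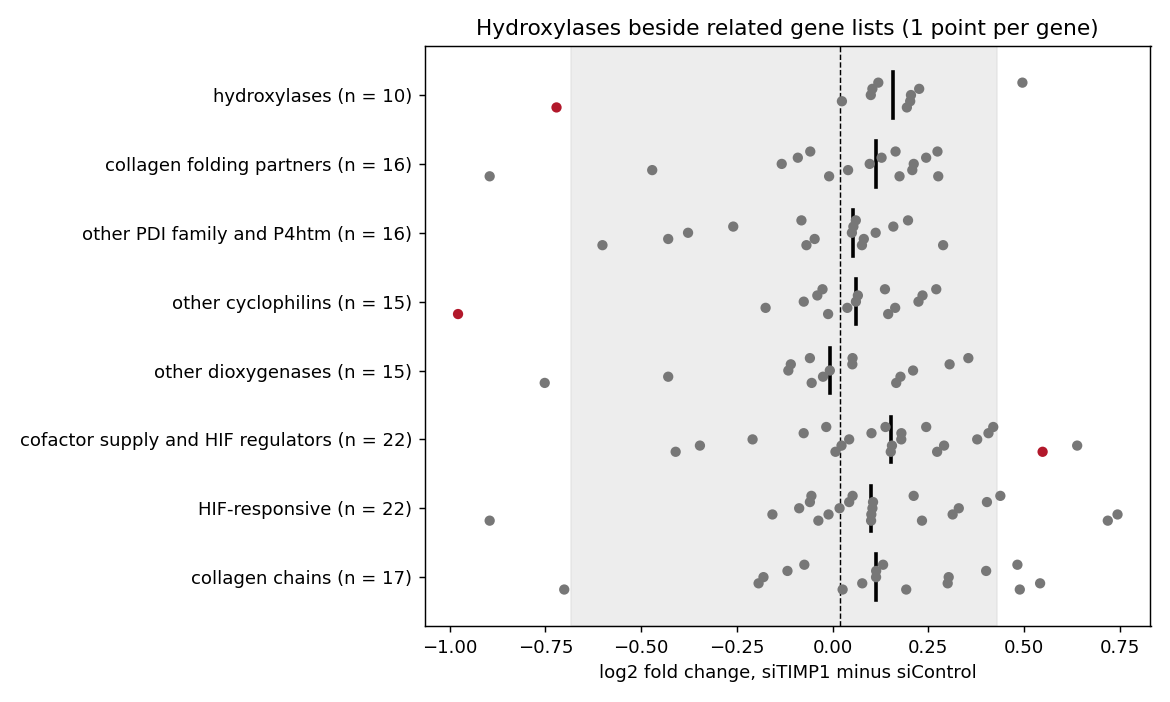
Log2 fold change (siTIMP1 minus siControl) of the 10 hydroxylase genes and of 7 related lists, 1 point per gene by its brightest tested probe; black bars are list medians, red points passed an adjusted p under 0.05, the grey band is the 5th to 95th percentile of all tested probes and the dashed line their median. P4ha2, Ppih and Got1 are the red points.

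**Figure D4:**
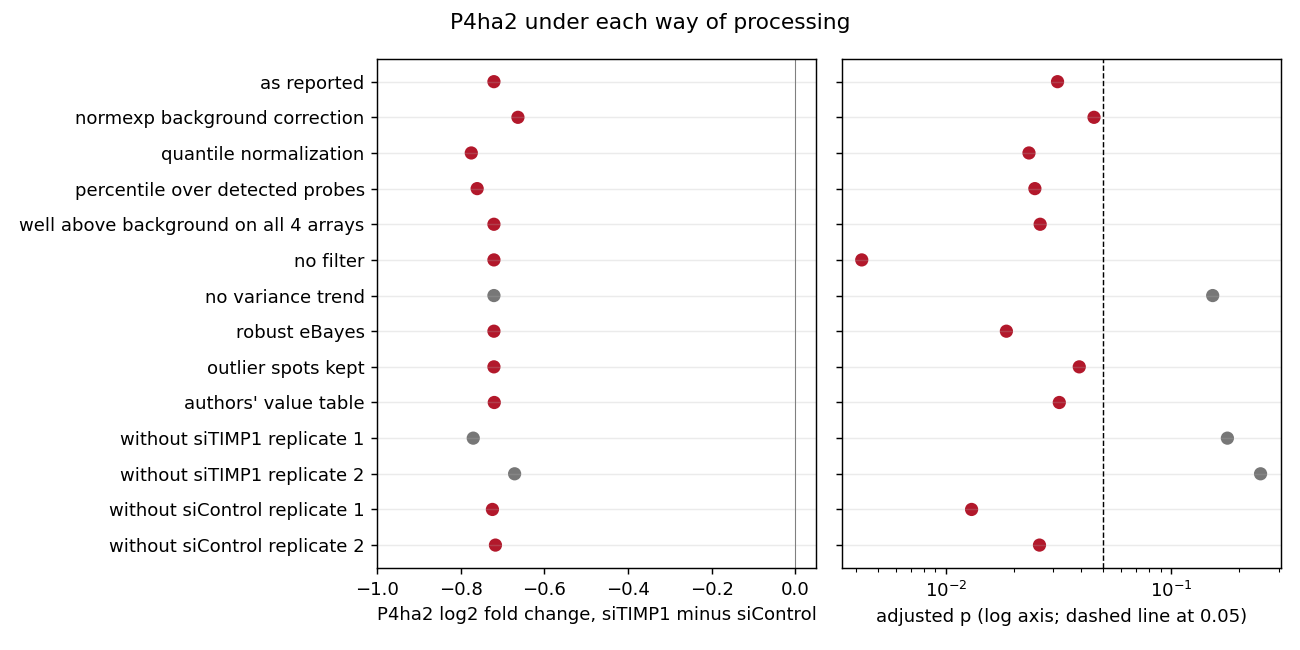
P4ha2 under the reported processing and 13 alternatives, with the log2 fold change (siTIMP1 minus siControl) on the left and the limma adjusted p on a log axis on the right; red points passed 0.05. The fold change stayed between -0.78 and -0.66, and the call was lost in 3 settings, without either siTIMP1 array and without a variance trend.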

How the data were processed

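Per the submitters' processing notes, Agilent Feature Extraction 11.5.1.1 made the deposited spot intensity values. In the file headers' terms, the processed intensity is background-subtracted and detrended within an array, not scaled between arrays, and coordinates are of mm9. The authors' deposited value table holds log2 values: each column is the log2 processed signal minus 1 constant, 6.90 to 6.96, and column medians were -3.99 and -3.91 in siTIMP1 and -3.94 and -3.86 in siControl.

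From the scanner files, log2 processed signal minus its 75th percentile on that array (control spots left out) was computed, without spots marked as outliers (136 to 250 per array). No spot was saturated, and each member probe had 1 spot. Tests covered the 26015 of 56605 probes that gave 4 values and, in at least 1 group, exceeded background well on each array. Groups were set from the sample titles and compared in R 4.3.3 by limma 3.58.1 (lmFit and trended eBayes). Adjusted p-values are Benjamini-Hochberg over every tested probe. Adjusted p-values come from this fit unless another setting or a left-out array is named with them, and the number of arrays limits precision. A RefSeq accession matched for 32994 probes and set their symbols.

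All members are named with every probe. Of each related list, called genes and the 3 others of smallest p are named, and the 5 profiles nearest to the member of smallest p. In the cofactor list, 1 gene that this rule names is not reported here. The members and lists were chosen with earlier results of these data known. The alternatives were normexp background correction (offset 50), quantile normalization, the percentile over detected probes, filters that were stricter or absent, robust or untrended eBayes, outlier spots kept, the authors' table, the mean of a gene's probes, an adjusted p under 0.1, and leaving out each array. Figures were drawn with matplotlib 3.10.9.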

Additional observations from a re-analysis of the deposited data

How the results depend on the processing

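Over 13 alternatives and 13 member probes there were 169 values, of which 162 kept their sign and their side of the threshold. P4ha2 lost its call in 3, without a trend (-0.72) and without either siTIMP1 array, and its value was -0.77 to -0.67 when 1 array was left out. With 1 array left in a group, limma assumes that it varies like the other group. The other 4 changed sign without a call in either setting: P4ha1 was -0.035 without siTIMP1 replicate 1 (-0.04 to 0.24 with 1 array left out), the brighter Plod3 probe was -0.035 after quantile normalization and -0.016 where detected probes set the percentile, and the other Plod3 probe was 0.058 without siTIMP1 replicate 1 (-0.14 to 0.06 with 1 array left out). P4ha2 minus P4ha1 was -0.91 to -0.74 when 1 array was left out and -0.86 to -0.75 under the other alternatives.

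The count of 1 member probe called was 0 in limma without a trend, where 1 had an unadjusted p under 0.05, and 0 to 1 when 1 array was left out. The 2 related genes called became 1 with normexp, quantile normalization, the detected-probe percentile or outlier spots kept, 4 under robust eBayes, 6 unfiltered, 5 at an adjusted p under 0.1, and 0 without a trend or with probes averaged per gene, where limma gave 26 and 33 an unadjusted p under 0.05. They were 0 to 14 when 1 array was left out. Over all tested probes, 16 higher became 124 unfiltered, 61 under robust eBayes, 181 at an adjusted p under 0.1 and 0 without a trend, and 0 to 483 when 1 array was left out. The 163 lower became 334, 249, 384 and 0 in the same settings, and 0 to 840 when 1 array was left out. In the settings with 0 calls, limma without a trend gave 4216 probes an unadjusted p under 0.05, and without siTIMP1 replicates 1 and 2 it gave 2920 and 2692. For these changes the cause was not tested. No paired analysis was possible because the labels number no replicates, and replicates 1 and 2 here follow only the order of the samples. A slide block was not run, since 1 slide held all arrays. Dim signals limit what the arrays show of P4ha3 and of the alternative transcripts.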
